A study of Mus musculus with 44 samples.

Results

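CD26+ and CD26- cancer-associated fibroblasts (CAFs) sorted from the same WB1P mammary tumors were compared mouse by mouse. CD26 is a peptidase of the cell surface encoded by Dpp4. The comparison used 15 of the 44 libraries of the series, those of the 4 WB1P mice (93, 12, 14 and 35) that gave both classes. CD26+ CAFs were the 7 libraries titled CD26+ or +/+ (double+), and CD26- CAFs were the 8 libraries titled EN1+ or -/- (double-). The counts were added up by mouse and class, which gave 8 sums, 4 of each class. Mouse 12 had no library titled CD26+, so that its CD26+ sum was the double+ library alone. The title of mouse 12 also carries the mark R4, which the labels do not explain. All values below are CPM, each gene's counts as a share of its sum's total, scaled by edgeR's TMM factors, and are given for mice 93, 12, 14 and 35 in that order.

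All recipient mice of the series were En1-Cre;mTmG. In these mice cells turn from membrane tdTomato to membrane GFP once they or their ancestors have expressed Cre from the En1 promoter, so that GFP marks the En1 lineage. The 4 WB1P mice had received fragments of pre-neoplastic WapCre;Brca1F/F;Trp53F/F mammary tissue, in which Cre driven by the milk protein promoter Wap removes Brca1 and Trp53 from mammary epithelial cells. For comparison, 5 WB1P-Myc mice had received tissue of the same alleles that also carried Col1a1invCAG-Myc-IRES-Luc, which adds Myc overexpression, and 3 control samples carried transplanted control tissue. The recipient fat pads were not cleared, so that the host's own gland remained, and host fibroblasts keep intact Brca1 and Trp53. Each control label names a pair of animals (82/83, 49/52 and 44/46) and was counted as 1 mouse. Titles of 2 WB1P-Myc mice carry the mark 8x8, and no age at harvest is given for any mouse. The paper calls WB1P-Myc tumors of 8x8 mm advanced, but describes the sequenced tumors as end-stage. The labels do not say that the mark is a size, so the stage of these 2 mice is not certain. In all groups cells negative for EpCAM, CD49f, CD31 and CD45 were taken as fibroblasts, then divided by CD26 and GFP. This gate does not remove pericytes or vascular smooth muscle cells.

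Fibroblasts of connective tissue build and remodel the extracellular matrix, and those around vessels and ducts of many organs include a CD26+ population that also expresses Pi16 and is held to be a progenitor reservoir. In tumors, fibroblasts are commonly described as inflammatory CAFs (iCAFs), which secrete cytokines, chemokines and complement, or myofibroblastic CAFs (myCAFs), which express contractile proteins and dense matrix. Pericytes and vascular smooth muscle cells of vessel walls share much of the contractile programme of myofibroblasts.

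The 15 libraries held 5790599 to 15155454 counts, and the shallowest was the double+ library of mouse 12. The next lowest held 11045612 counts. Log expression correlated at r from 0.989 to 0.995 between libraries of the same mouse and class (7 pairs) and from 0.838 to 0.904 between classes, over 10641 genes. Libraries of mouse 93 stood apart, at r from 0.928 to 0.959 with other mice of the same class, against 0.939 to 0.982 among the other 3 mice. Counts without mouse 93 and without mouse 12 are therefore given beside the first result.

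Dpp4, on which the cells were sorted, was at 477, 224, 378 and 504 CPM in CD26+ CAFs and at 6.08, 1.6, 8.39 and 6.90 CPM in CD26- CAFs. Every CD26+ sum lay far above every CD26- sum, so the labels and the sorted gene went together. Of the transcripts of the negative gates, Ptprc (CD45) was at 0.753 to 2.00 CPM in CD26+ and 0.693 to 8.89 CPM in CD26- CAFs, and Pecam1 (CD31) at 1.75 to 11.8 and 2.16 to 4.23 CPM. Epcam was at 3.20 to 31.2 and 11.3 to 39.7 CPM. Itga6 (CD49f) was at 1.93, 2.26, 7.96 and 17.9 CPM in CD26+ and 17.4, 19.7, 18.6 and 46.8 CPM in CD26- CAFs, lower in CD26+ within each mouse. Of the 10 fibroblast markers, such as Col1a1, Dcn and Pdgfra, none was below 1 CPM in either class, and their summed level was 75308 to 83794 CPM in CD26+ and 55185 to 77038 CPM in CD26- CAFs.

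CD26+ and CD26- CAFs differed in a large share of their transcriptome. Of 14563 genes tested, 2004 (13.8%) were higher and 2170 (14.9%) lower in CD26+ CAFs at an adjusted p below 0.05, by edgeR's quasi-likelihood test paired by mouse. An unadjusted p below 0.05 was reached by 5921 genes (40.7%). A log2 difference beyond 2 was also met by 359 higher genes (2.47% of all genes tested) and 619 lower genes (4.25% of all tested). All 4 CD26+ sums lay above all 4 CD26- sums for 1846 genes (12.7%), and below them for 1916 (13.2%). Without mouse 93, 1450 genes were higher and 1872 lower, of which 1375 and 1706 were among those called with all 4 mice. Without mouse 12 the counts were 1904 and 2133, and 1627 and 1951 of these were shared. Without mouse 14 only 1100 genes were higher and 1614 lower, and without mouse 35 only 1238 and 1724. No gene was called in the opposite direction in any of these fits.

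**Figure D1:**
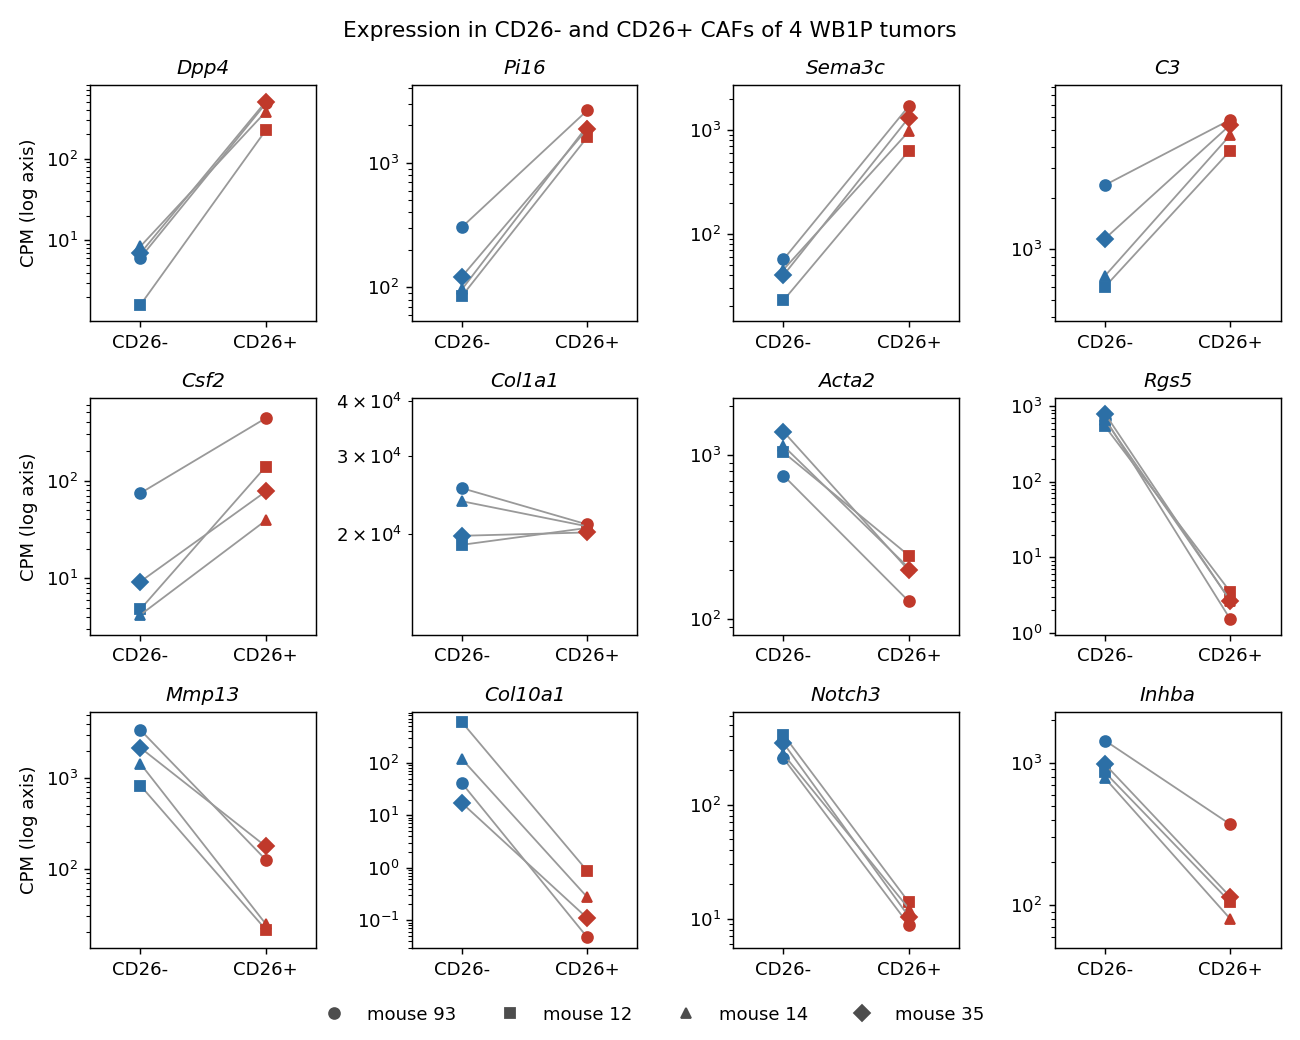
Expression of 12 genes in CD26- and CD26+ CAFs of the 4 WB1P mice, in CPM on log axes, with 1 marker shape per mouse and a line joining the sums of 1 mouse. Dpp4, Pi16, Sema3c, C3 and Csf2 go up from CD26- to CD26+ in all 4 mice, Acta2, Rgs5, Mmp13, Col10a1, Notch3 and Inhba go down, and Col1a1 stays between 18871 and 25371 CPM.

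Genes of progenitor and adventitial fibroblasts were higher in CD26+ CAFs almost throughout. Of 24 tested, 23 were higher in CD26+ CAFs and none lower, with a median log2 difference of 2.78, against 0.02 over all genes tested. Like the other lists, this one was chosen with earlier results of these data known, so its share is a description only. Pi16, a peptidase inhibitor that marks adventitial fibroblasts, was at 2644, 1612, 1985 and 1878 CPM in CD26+ and at 306, 85.3, 96.7 and 122 CPM in CD26- CAFs. The classes did not overlap, and mouse 93 was the highest in both. The log2 difference was 3.92 (SE 0.25, adjusted p = 3.93e-05).

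Sema3c, a secreted guidance cue, was at 1722, 635, 981 and 1330 CPM against 56.6, 22.7, 45.1 and 39.8 CPM. Mouse 12 was the lowest of each class, and the lowest CD26+ value still exceeded the highest CD26- value (log2 difference 4.81, SE 0.17, adjusted p = 7.15e-06). Cd55, which protects cells from complement, was at 589, 313, 374 and 464 against 28.6, 14.2, 20 and 16.9 CPM, again without overlap (log2 difference 4.46, SE 0.16, adjusted p = 7.15e-06). The calcium-binding protein gene Efhd1 averaged 143 ± 27.4 against 2.84 ± 1.12 CPM (SD, n = 4), and the cell adhesion gene Opcml 55.4 ± 16.6 against 2.55 ± 1.18 CPM, with log2 differences of 5.71 and 4.50. Igfbp6, which binds insulin-like growth factors, and the ligand Wnt2 were higher by 2.83 and 3.75 on the log2 scale. Stmn4 was the member that did not pass, at 4.56 to 21.9 CPM in CD26+ and 8.84 to 24.1 CPM in CD26- CAFs (log2 difference -0.36, SE 0.31).

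Of 23 complement genes tested, 9 were higher and 3 lower in CD26+ CAFs, with a median log2 difference of -0.01. The member with the largest difference was the inhibitor Cd55, given above, which is also on the progenitor list. C3, the central component of all complement pathways, was at 5753, 3788, 4683 and 5370 CPM in CD26+ and 2376, 600, 696 and 1151 CPM in CD26- CAFs. The classes did not overlap, and mouse 93 had the highest CD26- value (log2 difference 2.23, SE 0.27, adjusted p = 7.13e-04). C4b, the classical-pathway component, was again without overlap, with 4100, 2586, 3145 and 2730 against 1165, 271, 333 and 420 CPM (log2 difference 2.76, SE 0.27, adjusted p = 2.74e-04). C4a and C4b are near-identical copies, and reads of one could be counted for the other, so that C4a, at 58.0 to 74.8 against 8.06 to 16.8 CPM, is not independent of it. Cfb, which forms the alternative-pathway convertase, was higher by 2.33 (SE 0.22). Members of the higher group also included the C1r and C1s protease genes C1ra and C1s1, while the terminal components C6 and C7 and the inhibitor Cd59a were lower, by 2.49, 2.16 and 1.88 on the log2 scale.

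Of 28 chemokine and cytokine genes tested, 14 were higher and 5 lower in CD26+ CAFs, with a median log2 difference of 0.63. Without mouse 14 only 8 were higher. Csf2, which encodes the myeloid growth factor GM-CSF, was at 436, 139, 39.1 and 77.3 CPM in CD26+ and 74.4, 4.82, 4.21 and 9.23 CPM in CD26- CAFs. Within each mouse CD26+ was the higher, but the CD26- value of mouse 93 lay above the CD26+ value of mouse 14 (log2 difference 3.38, SE 0.36, adjusted p = 4.00e-04). This call was lost when the fit did not pair the classes by mouse. Ccl2, the main chemoattractant of monocytes, was at 2178, 2264, 1199 and 1187 against 906, 454, 295 and 364 CPM. Its classes did not overlap, with mice 93 and 12 above mice 14 and 35 in both (log2 difference 1.83, SE 0.20, adjusted p = 4.36e-04). Tslp, an epithelial-type cytokine of type 2 immunity, averaged 14.0 ± 11.7 against 3.37 ± 2.27 CPM (SD, n = 4) and was higher by 1.81 (SE 0.33), with overlap between the classes of different mice.

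The membrane-bound chemokine Cx3cl1 went the other way. It was at 19.1, 30.4, 22.7 and 24.4 CPM in CD26+ and 83.2, 174, 121 and 136 CPM in CD26- CAFs, with no overlap (log2 difference -2.38, SE 0.13, adjusted p = 2.14e-05). The interferon-induced chemokine Cxcl9, the chemokine Cxcl14, the Csf1r ligand Il34 and the osteoclast factor Tnfsf11 were lower as well, by 1.4, 1.01, 1.16 and 1.52 on the log2 scale. Il6, a cytokine often used to name iCAFs, was at 704, 860, 331 and 365 against 702, 447, 230 and 236 CPM and did not pass (log2 difference 0.53, SE 0.17, adjusted p = 0.0570). Cxcl12 did not pass either, at 309 to 759 CPM in CD26+ and 265 to 647 CPM in CD26- CAFs (adjusted p = 0.324).

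Acute phase and NF-kB response genes were higher in 9 of 18 tested and lower in none, with a median of 0.59. Ptx3, a soluble pattern recognition protein, was at 3237, 2372, 1772 and 1946 CPM against 1103, 320, 344 and 391.8 CPM. All CD26+ values lay above all CD26- values, and mouse 93 was highest in both classes (log2 difference 2.28, SE 0.23, adjusted p = 3.05e-04). Has1, which makes hyaluronan, and Steap4, a metalloreductase induced by inflammation, were higher by 2.06 (SE 0.20) and 1.39 (SE 0.17). Saa3, the serum amyloid made outside the liver, varied more, at 90.4, 23.8, 208 and 164 against 44.4, 5.25, 32.2 and 28.4 CPM, and was higher within each mouse (log2 difference 2.11, SE 0.28). Socs3, the feedback inhibitor of cytokine signalling, averaged 919 ± 299 against 610 ± 85.6 CPM (SD, n = 4) and did not pass (adjusted p = 0.0907).

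**Figure D2:**
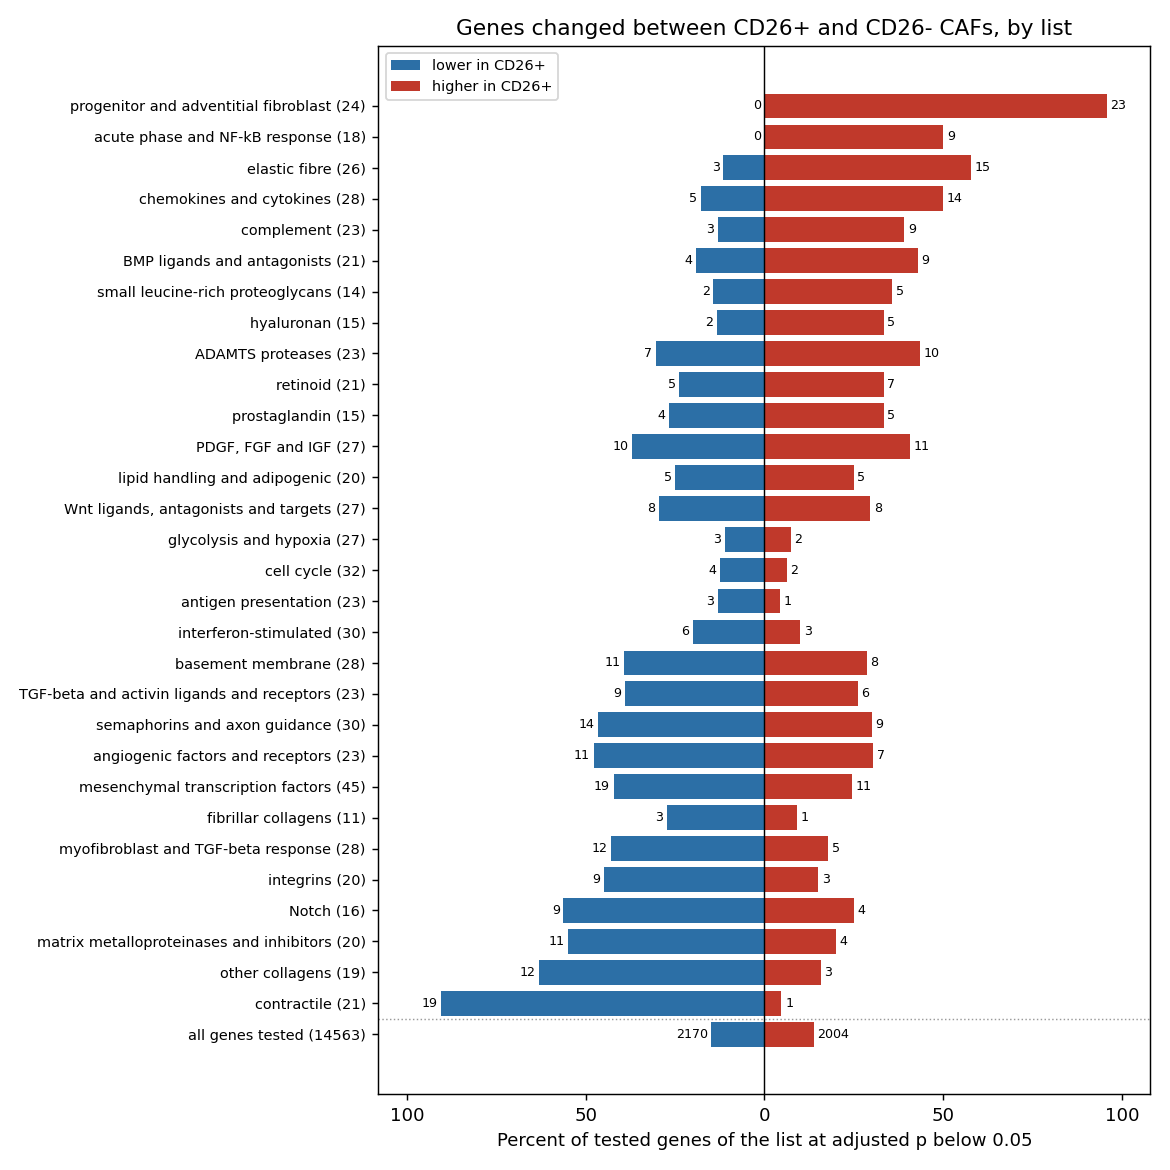
Share of the tested genes of each of 30 lists that passed at an adjusted p below 0.05, in percent, to the right for genes higher and to the left for genes lower in CD26+ CAFs, with the number of genes at each bar and the number tested in brackets. The progenitor list (23 higher, 0 lower) and the contractile list (1 higher, 19 lower) lie at opposite ends, and the bottom bar gives all 14563 genes (2004 higher, 2170 lower). The lists were chosen with earlier results of these data known.

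Contractile genes were mostly lower in CD26+ CAFs. Of 21 tested, 19 were lower in CD26+ CAFs and 1 higher, with a median log2 difference of -2.85. Acta2, the smooth muscle actin that defines myofibroblasts, was at 128, 245, 205 and 198 CPM in CD26+ and 753, 1043, 1142 and 1396 CPM in CD26- CAFs. No CD26+ value came near the CD26- range, but the transcript was present in both classes (log2 difference -2.48, SE 0.16, adjusted p = 4.58e-05). Tagln, an actin-binding protein of smooth muscle, was at 104, 203, 112 and 121 against 623, 687, 766 and 776 CPM (log2 difference -2.46, SE 0.20).

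Myh11, the smooth muscle myosin heavy chain, was at 0.330, 0, 0.652 and 1.09 CPM in CD26+ and 47.1, 32.2, 62.6 and 103 CPM in CD26- CAFs (log2 difference -6.77, SE 0.25, adjusted p = 7.31e-06). The value of 0 came from the shallow library of mouse 12. Des, an intermediate filament protein of muscle, and Actg2, the enteric smooth muscle actin, were lower by 5.92 (SE 0.32) and 5.44 (SE 0.21). Mylk, the kinase that starts smooth muscle contraction, averaged 5.27 ± 1.68 against 130 ± 30.6 CPM (SD, n = 4). Exceptions were few: Mustn1, a small muscle protein, was at 31.6, 26.7, 22.9 and 15.9 against 13.3, 6.97, 7.03 and 5.73 CPM (log2 difference 1.58, SE 0.15), and the scaffold Pdlim7 did not differ beyond its error, at 132 to 159 and 148 to 163 CPM (log2 difference -0.05, SE 0.12).

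Many smooth muscle promoters carry a CArG box, the binding motif of serum response factor, spelled here as CC, 6 letters that are A or T, and GG. Because the motif reads alike on both strands, 1 search covers both. Of the 22 contractile genes, 17 had a promoter in the RefSeq table (GRCm38.p6), and the 250 bases before the start were searched. A CArG box was present in 2 of the 14 promoters of genes that were lower in CD26+ CAFs, those of Myl9 and Ldb3 (14.3%). It was present in 378 of all 27025 promoters (1.4%), in 34 of 1602 promoters of all lower genes (2.12%) and in 22 of 1531 promoters of all higher genes (1.44%). The other 12 promoters, that of Acta2 among them, do not hold these letters in the window. Only this exact spelling was searched, so boxes that depart from it were not counted, and their absence is not shown. Both promoters with a box are shown 5′ to 3′ in the direction of the gene, with the box in capitals. Its first base lies 161 bases before the start in Myl9 (chr2:156775214-156775463, plus strand) and 35 bases before it in Ldb3 (chr14:34588682-34588931, minus strand).
Myl9: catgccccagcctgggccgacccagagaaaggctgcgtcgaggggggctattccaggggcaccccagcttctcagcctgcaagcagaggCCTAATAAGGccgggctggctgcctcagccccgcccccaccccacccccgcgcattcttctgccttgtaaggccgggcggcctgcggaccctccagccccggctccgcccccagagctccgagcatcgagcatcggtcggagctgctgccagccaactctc
Ldb3: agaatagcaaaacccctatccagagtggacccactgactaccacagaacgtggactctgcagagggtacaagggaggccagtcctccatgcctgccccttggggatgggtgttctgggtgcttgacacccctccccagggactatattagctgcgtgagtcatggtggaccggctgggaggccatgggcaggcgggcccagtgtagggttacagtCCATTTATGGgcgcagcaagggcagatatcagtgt
Myl9, the regulatory light chain of smooth muscle myosin, was at 36.8, 62.3, 51.1 and 59.5 CPM in CD26+ and 137, 147, 209 and 244 CPM in CD26- CAFs (log2 difference -1.81, SE 0.17, adjusted p = 2.11e-04). Ldb3, a Z-disc protein, was at 0.330, 0.521, 0.823 and 0.255 against 3.70, 3.21, 7.56 and 2.44 CPM (log2 difference -3.19, SE 0.26, adjusted p = 1.08e-04). Both genes had no overlap between the classes, and mouse 14 was highest for Ldb3.

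Markers of vessel wall cells moved with the contractile genes. Of 12 pericyte markers 10 were lower in CD26+ CAFs and none higher, and all 7 vascular smooth muscle markers tested, of 10 listed, were lower. The pericyte list summed to 228 to 441 CPM in CD26+ and 1873 to 2635 CPM in CD26- CAFs, the smooth muscle list to 5.79 to 10.5 and 153 to 442 CPM, and the contractile list to 818 to 1034 and 3096 to 4378 CPM. In CD26+ CAFs, 5 of the 10 smooth muscle markers and 2 of the 12 pericyte markers stayed below 1 CPM in every mouse, against 3 and 0 in CD26- CAFs. Myh11, Cnn1, Des, Lmod1, Actg2, Pln and Casq2 are on both the contractile and the smooth muscle list. In bulk samples fewer cells of a type and less RNA per cell cannot be told apart, and the part of pericytes or smooth muscle cells in the results for CD26- CAFs was not tested.

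Rgs5, a regulator of G protein signalling that is strongest in pericytes, was at 1.51, 3.47, 2.67 and 2.62 CPM in CD26+ and 687, 541, 657 and 796 CPM in CD26- CAFs. The 4 mice were close to each other in both classes (log2 difference -8.12, SE 0.28, adjusted p = 7.15e-06). Mcam, a vascular adhesion molecule, was at 3.53, 8.68, 3.15 and 4.74 against 204, 573, 248 and 452 CPM (log2 difference -6.20, SE 0.19). The cation channel gene Trpc6 averaged 0.403 ± 0.501 against 23.7 ± 3.83 CPM (SD, n = 4). Kcnj8 and Ndufa4l2, also on the pericyte list, did not follow. Kcnj8, a potassium channel subunit, was at 25.1, 42.5, 26.7 and 52.3 against 21.1, 26.0, 32.3 and 62.3 CPM, and Ndufa4l2, a mitochondrial protein induced by hypoxia, at 57.4, 214, 65.8 and 50.5 against 55.9, 75.6, 72.7 and 98.8 CPM. For both the log2 difference was within its error (0.10, SE 0.18, and 0.09, SE 0.35), and its sign turned without mouse 12.

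**Figure D3:**
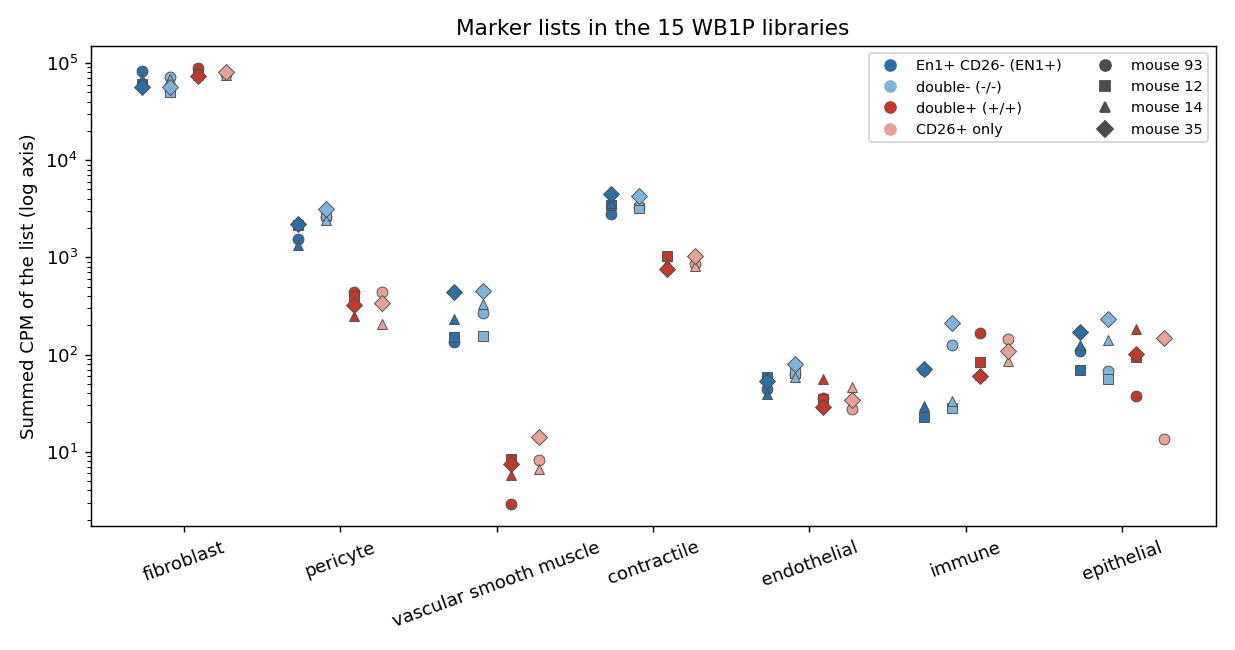
Summed CPM of 7 marker lists in each of the 15 WB1P libraries, on a log axis, with colour for the sorted population and shape for the mouse. Pericyte, vascular smooth muscle and contractile sums are lower in all 7 CD26+ libraries than in all 8 CD26- libraries, while the ranges of the fibroblast sums overlap.

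The other lists of cell types moved less. Of 10 fibroblast markers 5 were higher and none lower in CD26+ CAFs (1 to 4 higher without 1 mouse), with a median log2 difference of 0.53. Their sum was higher in CD26+ CAFs within each mouse. Endothelial markers were lower in 6 and higher in 1 of 9 tested, at summed levels of 31.1 to 51.5 CPM in CD26+ and 48.7 to 66.4 CPM in CD26- CAFs. One of the lower members, Esam, is also expressed by pericytes and was at 1.56 ± 0.636 against 23.9 ± 8.20 CPM (SD, n = 4). Of 12 immune markers 1 was higher and 1 lower (3 lower without mouse 12, 4 without mouse 14), at 73.5 to 155 and 25.4 to 139 CPM in sum. The higher one was Cd3e, whose 35.1 to 122 CPM made up much of the CD26+ sums. The median log2 difference of the list was -0.68, and 2 markers had a positive difference. None of 11 epithelial markers tested passed, and their sums overlapped (24.7 to 170 and 62.6 to 199 CPM). Skeletal muscle markers were lower in 4 of 6 tested (2 without mouse 12, 1 without mouse 14), and Acta1, the skeletal muscle actin, was at 19.4, 35.5, 22.8 and 1.68 CPM in CD26- and 0.235 to 2.26 CPM in CD26+ CAFs. The CD26- libraries of a mouse differed for Acta1. The EN1+ and double- libraries had 36.8 and 3.84 CPM in mouse 93, 57.1 and 15.8 CPM in mouse 12, and 2.34 and 44.6 CPM in mouse 14. Of the Schwann cell list 1 of 5 was higher, of the adipocyte list 1 of 3 was lower, and the mesothelial gene tested did not pass.

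Notch signalling genes were lower in 9 and higher in 4 of 16 tested (median -1.74). Of the higher genes 2 were left without mouse 93 and 0 without mouse 14 or mouse 35 (edgeR). Over all genes the higher calls fell as well, from 2004 to 1100 without mouse 14 and to 1238 without mouse 35. In this pathway a ligand on one cell activates a receptor on its neighbour, which then switches on the Hes and Hey repressors. Notch3, the receptor of mural cells, was at 8.80, 13.9, 12.2 and 10.4 CPM in CD26+ and 255, 410, 276 and 347 CPM in CD26- CAFs, with little spread in either (log2 difference -4.82, SE 0.16, adjusted p = 7.15e-06). Notch1 was at 50.01, 29.5, 30.8 and 26.6 against 269, 318, 185 and 158 CPM (log2 difference -2.74, SE 0.19). Of the targets, Heyl was at 4.85, 24.5, 13.2 and 13.2 against 54.9, 190, 94.9 and 134 CPM, highest in mouse 12 in both classes (log2 difference -3.15, SE 0.16). Nrarp, a feedback inhibitor induced by Notch, was lower by 5.20 (SE 0.47). The receptor Notch2 was higher by 0.80, and the ligand Jag1 did not pass, at 115 to 509 against 201 to 445 CPM, where the CD26+ value of mouse 93 was the highest of all. Pericyte markers moved with this list, as given above, and their part in it was not tested.

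The main fibrillar collagens were shared by both classes. Col1a1, the chief chain of type I collagen, was at 20987, 20612, 20781 and 20132 CPM in CD26+ and 25371, 18871, 23698 and 19784 CPM in CD26- CAFs. The ranges overlapped, and the difference was smaller than its error (log2 difference -0.08, SE 0.17, adjusted p = 0.764). Col1a2 behaved in the same way (log2 difference -0.05, SE 0.17). Col3a1, the chain of type III collagen, was at 30057, 27181, 24750 and 26819 against 19769, 12903, 16500 and 13732 CPM and was higher (log2 difference 0.81, SE 0.18, adjusted p = 0.0138). That call was lost without mouse 12 and without mouse 35. Of the 11 fibrillar collagen genes tested, 1 was higher and 3 lower, among them Col11a1, at 104, 50.2, 101 and 107 against 442, 764, 603 and 395 CPM (log2 difference -2.59, SE 0.33).

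Collagens outside the fibrillar group were mostly lower in CD26+ CAFs, with 12 lower and 3 higher of 19 tested (median -1.26). Col10a1, the short-chain collagen of growth plate cartilage, had the largest difference of the list. It was at 0.0471, 0.868, 0.274 and 0.109 CPM in CD26+ and 40.8, 595, 118 and 17.1 CPM in CD26- CAFs, highest in mouse 12 and lowest in mouse 35. Only 17 counts stood behind the CD26+ values, against 20646 in CD26- CAFs (log2 difference -8.84, SE 0.28, adjusted p = 7.15e-06). Col7a1, which forms the anchoring fibrils under epithelia, varied less, at 17.3, 11.1, 23.8 and 41.0 against 922, 753, 1181 and 905 CPM (log2 difference -5.46, SE 0.30). Col26a1 and the membrane collagen Col23a1 were lower by 5.68 and 3.21, and the type VI chains Col6a1, Col6a2 and Col6a3 by 0.86, 0.77 and 1.34. Col14a1 and Col28a1 were among the higher members, by 1.99 and 2.13.

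Basement membrane genes went both ways, with 8 higher and 11 lower of 28 (median -0.35). Without mouse 14 or mouse 35 the higher genes were 5, and without mouse 14 the median was -0.86. Col15a1, a collagen of vessel basement membranes, was at 367, 386, 691 and 512 CPM in CD26+ and 1757, 3406, 2213 and 2362 CPM in CD26- CAFs (log2 difference -2.32, SE 0.24, adjusted p = 3.85e-04). The laminin chains Lama1 and Lamc3 and the Fraser complex gene Frem1 were lower by 3.43, 4.54 and 3.89. These genes are also made by vessel wall cells, whose markers moved with them, and the part of these cells was not tested. The paper names Col15a1 among the collagens of CD26- normal fibroblasts.

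Elastic fibre genes were higher in 15 and lower in 3 of 26 tested (median 0.53). Efemp1 (fibulin-3) was at 902, 817, 938 and 992 CPM in CD26+ and 220, 43.2, 78.4 and 116 CPM in CD26- CAFs, nearly constant in the former (log2 difference 3.24, SE 0.35, adjusted p = 4.22e-04). Ltbp1, which stores latent TGF-beta in the matrix, was at 817, 367, 402 and 668 against 102, 32.9, 36.1 and 125 CPM (log2 difference 3.09, SE 0.21). The microfibril-associated protein gene Emilin2 and the crosslinking enzyme gene Loxl4 were higher by 2.40 (SE 0.15) and 1.98 (SE 0.22). Without mouse 14 or mouse 35 the number of higher genes on this list fell to 10 and 9.

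Small leucine-rich proteoglycans, which coat and space collagen fibrils, were higher in 5 and lower in 2 of 14 (median 0.42). Ogn (osteoglycin) was at 768, 418, 880 and 805 against 120, 32.7, 74.4 and 71.3 CPM (log2 difference 3.35, SE 0.21, adjusted p = 3.41e-05), and Dcn (decorin) at 3223, 2978, 2711 and 3045 against 1630, 730, 989 and 969 CPM (log2 difference 1.53, SE 0.20). In neither gene did the classes overlap. Prelp was higher by 2.50, Podnl1 lower by 3.72, and Bgn (biglycan) did not pass, at 4861 to 7397 and 6280 to 7909 CPM.

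The list of myofibroblast and TGF-beta response genes had 12 lower and 5 higher of 28 tested (median -0.33), and 3 higher without mouse 14 or mouse 35. Serpine2, a protease inhibitor, was at 288, 290, 182 and 244 CPM in CD26+ and 1678, 2269, 1734 and 1224 CPM in CD26- CAFs (log2 difference -2.77, SE 0.20, adjusted p = 6.27e-05). The Wnt co-receptor Ptk7 was lower by 3.04 and the matrix protein gene Spon2 higher by 2.99. Postn (periostin), which is often listed with myCAFs, did not differ beyond its error (4774 to 6892 against 5471 to 6864 CPM, log2 difference -0.08, SE 0.17). Fn1 (fibronectin) did not pass either, at 31036, 14704, 18229 and 21732 against 15133, 15652, 15141 and 13246 CPM (adjusted p = 0.153).

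Among TGF-beta and activin ligands and receptors, 6 were higher and 9 lower of 23 (median -0.19). Inhba, the subunit of activin A, was at 370, 105, 80.0 and 114 CPM in CD26+ and 1436, 857, 781 and 978 CPM in CD26- CAFs. Mouse 93 was the highest of both classes and the classes did not overlap (log2 difference -2.85, SE 0.24, adjusted p = 1.43e-04). Its secreted antagonist Fst (follistatin) went the other way, at 447, 157, 148 and 155 against 115, 62.8, 48.8 and 49.4 CPM (log2 difference 1.63, SE 0.14, adjusted p = 1.52e-04). Fstl3, a further activin antagonist, was lower by 1.90 (SE 0.19), and the co-receptor Tgfbr3 (betaglycan) was higher by 1.97 (SE 0.14).

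BMP ligands and antagonists were higher in 9 and lower in 4 of 21 (median 0.12). The ligand Bmp6 was at 59.0, 37.5, 26.3 and 47.5 CPM in CD26+ and 2.16, 1.57, 1.78 and 1.37 CPM in CD26- CAFs (log2 difference 4.59, SE 0.22, adjusted p = 1.37e-05). Bmp3, which opposes osteogenic BMPs, and the antagonist Chrdl1 were higher by 3.92 and 2.63. The antagonist Grem1 (gremlin) was at 1.79, 1.91, 2.67 and 6.53 against 60.6, 44.3, 72.9 and 99.0 CPM, highest in mouse 35 in both classes (log2 difference -4.54, SE 0.22, adjusted p = 1.42e-05).

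Of 27 Wnt genes tested 8 were higher and 8 lower (median -0.48). The ligands Wnt2, Wnt9a, Wnt10b and Wnt16 were among the higher genes, and the ligands Wnt2b, Wnt5a and Wnt11 among the lower. Wnt10b, which restrains fat cell formation, was at 45.9, 21.9, 25.5 and 35.0 against 1.04, 0.219, 0.785 and 0.755 CPM (log2 difference 5.54, SE 0.24, adjusted p = 1.06e-05). Wnt2 was at 106, 106, 49.5 and 73.0 against 9.16, 3.43, 5.29 and 6.80 CPM, and Wnt16 averaged 19.8 ± 8.95 against 1.42 ± 0.851 CPM (SD, n = 4). The secreted Wnt antagonist Frzb was lower by 4.53 (SE 0.36), at 0.0942 to 1.06 against 8.99 to 22.9 CPM.

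Growth factor genes of the PDGF, FGF and IGF families were higher in 11 and lower in 10 of 27 (median 0.05). The receptors for platelet-derived growth factor went apart: Pdgfrb was at 242, 260, 354 and 313 CPM in CD26+ and 780, 1483, 1222 and 1335 CPM in CD26- CAFs (log2 difference -2.02, SE 0.18, adjusted p = 1.66e-04), and Pdgfra at 657, 356, 1006 and 821 against 503, 304, 591 and 440 CPM (log2 difference 0.57, SE 0.16, adjusted p = 0.0308). The paper used the protein of Pdgfrb to mark fibroblasts in normal tissue and tumors. Pdgfrb is also strong in pericytes, whose markers moved with it, and their part in its difference was not tested. The IGF-binding protein genes Igfbp5 and Igfbp6 were higher by 2.27 and 2.83 and Igfbp2 lower by 3.24. The growth factor Fgf18 was at 30.5, 25.3, 15.9 and 26.0 against 6.24, 1.82, 1.82 and 2.99 CPM (log2 difference 3.04, SE 0.25).

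Matrix metalloproteinases and their inhibitors were lower in 11 and higher in 4 of 20 tested (median -0.81), with 2 higher when mouse 12, 14 or 35 was left out. The collagenase gene Mmp13 was at 126, 21.4, 24.6 and 177 CPM in CD26+ and 3420, 833, 1451 and 2175 CPM in CD26- CAFs. Mice 93 and 35 were the highest of both classes, and the classes stayed apart (log2 difference -4.88, SE 0.39, adjusted p = 1.05e-04). Mmp10 (stromelysin-2) followed, at 19.2, 2.78, 5.08 and 10.7 against 480, 224, 252 and 308 CPM (log2 difference -5.24, SE 0.29). Mmp27 was higher by 2.72, and the inhibitor Timp1 did not pass, at 531 to 1108 and 454 to 864 CPM. ADAMTS proteases, which cut proteoglycans and process collagens, were higher in 10 and lower in 7 of 23 (median 0.26), and without mouse 35 in 6 higher. The aggrecanase Adamts5 was at 503, 281, 467 and 630 against 102, 76.9, 112 and 94.1 CPM (log2 difference 2.25, SE 0.17, adjusted p = 9.39e-05), and Adamtsl4 and Adamts19 were higher by 3.25 and 3.42. Of the hyaluronan genes 5 were higher (3 without mouse 93 or mouse 14) and 2 lower of 15 (median 0.64), with Tnfaip6, which links proteins to hyaluronan, at 1794 ± 469 against 532 ± 237 CPM (SD, n = 4).

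Angiogenic factors and receptors were higher in 7 and lower in 11 of 23 (median -0.38). The angiopoietin receptor Tek (Tie2) was at 113, 49.8, 119 and 133 CPM in CD26+ and 4.54, 5.29, 6.70 and 3.50 CPM in CD26- CAFs (log2 difference 4.32, SE 0.32, adjusted p = 7.78e-05). On the endothelial list, Kdr, a receptor for vascular endothelial growth factor, was higher as well, at 16.8, 7.99, 38.1 and 19.9 against 7.78, 2.77, 4.34 and 4.84 CPM (log2 difference 1.97, SE 0.32), Pecam1 did not pass and 6 markers were lower, and the part of endothelial cells in these values was not tested. The Tek ligand Angpt2 was at 0.753, 1.04, 0.720 and 1.604 against 18.4, 30.9, 24.3 and 13.3 CPM (log2 difference -4.28, SE 0.35). Flt1, a decoy receptor for vascular endothelial growth factor, was at 1.601, 1.91, 1.65 and 3.28 against 107, 174, 95.5 and 242 CPM (log2 difference -6.12, SE 0.16, adjusted p = 7.15e-06). The growth factor gene Vegfa did not pass (adjusted p = 0.167). Among semaphorins and other axon guidance genes 9 were higher and 14 lower of 30 (median -0.26), with Sema3e higher by 4.39 and Robo2 and Slit1 lower by 3.76 and 3.43.

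Retinoid genes were higher in 7 and lower in 5 of 21 (median 0.18). Aldh1a3, which makes retinoic acid, was at 326, 215, 177 and 226 CPM in CD26+ and 20.9, 84.7, 7.69 and 10.8 CPM in CD26- CAFs, where mouse 12 lay above the other 3 (log2 difference 3.61, SE 0.55, adjusted p = 0.00212). Aldh1a1, of the same enzyme family, was at 9.28, 12.8, 68.7 and 29.4 against 2.46, 0.875, 4.83 and 3.29 CPM (log2 difference 3.19, SE 0.33). The retinol transporter Stra6 and the retinoic acid-binding protein gene Crabp1 were lower by 3.35 and 3.37. Prostaglandin genes were higher in 5 and lower in 4 of 15 (median 0.26). Ptgis, which makes prostacyclin, was at 137, 204, 97.6 and 99.2 against 8.91, 24.0, 8.35 and 6.52 CPM (log2 difference 3.62, SE 0.18, adjusted p = 1.79e-05), and Ptgir, the prostacyclin receptor, was lower by 1.59 (SE 0.18). Of lipid handling and adipogenic genes 5 were higher (2 without mouse 14, 3 without mouse 35) and 5 lower of 20 (median -0.30), with the fatty acid-binding protein genes Fabp4 and Fabp5 lower by 2.43 and 2.02.

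Of 45 mesenchymal transcription factors tested, 11 were higher and 19 lower in CD26+ CAFs (median -0.19), and without mouse 14 only 7 were higher. Foxc2, a forkhead factor of vessel and mesoderm development, was at 0.706, 0.521, 0.137 and 0.182 CPM in CD26+ and 16.0, 20.8, 8.76 and 12.5 CPM in CD26- CAFs (log2 difference -5.32, SE 0.30, adjusted p = 2.57e-05). The T-box factors Tbx2 and Tbx3 were lower by 3.84 (SE 0.25) and 3.69 (SE 0.32). Prrx1, a factor of fibroblast identity, did not pass, at 421 to 600 and 432 to 490 CPM. En1 itself, whose promoter drove Cre, was at 63.5, 25.7, 24.4 and 20.2 against 33.6, 12.8, 18.5 and 10.7 CPM. It was higher in CD26+ CAFs within each mouse (log2 difference 0.80, SE 0.14, adjusted p = 0.00438), with overlap between mice, and mouse 93 was the highest of both classes.

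Integrin subunits were lower in 9 and higher in 3 of 20 tested (median -0.63). Itga1, which pairs with the beta1 chain as a collagen receptor, was at 12.5, 22.9, 17.9 and 22.8 CPM in CD26+ and 240, 613, 300 and 443 CPM in CD26- CAFs (log2 difference -4.33, SE 0.17, adjusted p = 7.54e-06). Itga7, Itga8 and Itga10 were lower by 2.88, 2.85 and 2.66, and Itga7 and Itga8 are also on the contractile list. The fibronectin receptor chain Itga5 did not pass, at 2466, 912, 763 and 793 against 1904, 1122, 945 and 1192 CPM.

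The remaining lists passed at shares closer to the background of 28.7% of all genes, or below it. Of 23 antigen presentation genes 1 was higher and 3 lower, and the class I genes H2-D1 and B2m overlapped between the classes (log2 differences 0.22, SE 0.15, and -0.08, SE 0.13). Of 30 interferon-stimulated genes 3 were higher and 6 lower (median -0.17). These counts moved with single mice: none was higher without mouse 93 or mouse 14, and 11 were lower without mouse 93, 3 without mouse 12 or 14 and 2 without mouse 35. Of 27 glycolysis and hypoxia genes 2 were higher and 3 lower, or 5 lower without mouse 12 (median -0.04), with the glucose transporter Slc2a3 lower by 2.40. Of 32 cell cycle genes 2 were higher and 4 lower (median 0.13). The higher genes were the mitotic cyclin Ccnb2 and the cell cycle inhibitor Cdkn1c, the latter by 1.79, and the lower ones were the G1 cyclins Ccne1, Ccnd1 and Ccnd2 and the inhibitor locus Cdkn2a, the last 2 by 1.47 and 2.62. Cdkn2a was at 2.26, 2.60, 2.40 and 3.06 CPM in CD26+ and 27.8, 16.6, 12.6 and 11.2 CPM in CD26- CAFs, highest in mouse 93.

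Ranked by size alone among genes with at least 10 CPM in the higher class, the genes most above in CD26+ CAFs began with Tll2, which stood ahead of Dpp4. Tll2, a tolloid-like metalloprotease, was at 27.03, 1.04, 5.42 and 11.0 CPM against at most 0.208 CPM, with 8 counts in all CD26- sums (log2 difference 7.03, SE 0.35). Dmkn (dermokine) was at 128, 140, 93.1 and 96.2 against 1.75, 0.949, 1.49 and 2.09 CPM (log2 difference 6.18, SE 0.28), and Duox2, a hydrogen peroxide-making oxidase, at 54.7, 14.1, 17.5 and 43.7 against 0.791, 0.219, 0.496 and 0.824 CPM (log2 difference 5.74, SE 0.21). Ackr2, a decoy receptor that clears inflammatory CC chemokines, was at 25.7, 25.3, 33.3 and 39.3 against 0.957, 0.255, 0.744 and 1.24 CPM (log2 difference 5.32, SE 0.28). The soluble lectin gene Colec10 and Smpd3, a neutral sphingomyelinase, were higher by 5.35 and 5.16. At the other end, beside genes already given, stood Ednrb, the endothelin B receptor, at 0.0471 to 0.514 against 15.1 to 39.5 CPM (log2 difference -6.40, SE 0.54), Kcnmb1, a potassium channel subunit of smooth muscle, at 0 to 0.292 against 14.1 to 30.2 CPM (-6.47, SE 0.28), Dmp1, a matrix protein of bone, at 0 to 0.182 against 9.16 to 15.5 CPM (-6.60, SE 0.35), and Sema5b, a guidance cue (-6.60, SE 0.46). The class I-like gene H2-M9 had 3 counts in all CD26+ sums and 5.91 to 18.8 CPM in CD26- CAFs.

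The difference was examined inside and outside the En1 lineage, since each class holds both kinds of cells. Inside it, double+ and En1+ libraries of 4 mice were compared, and 1691 genes were higher (12.9% of 13134 tested) and 2017 lower (15.4%). Outside it, CD26+ and double- libraries of mice 93, 14 and 35 gave 1762 higher (13.1% of 13433) and 1812 lower (13.5%). Both comparisons called 1261 genes higher, 74.6% of the first and 71.6% of the second list, and 1520 lower, 75.4% and 83.9%. No gene was called in opposite directions. The test of the difference between the CD26 effects inside and outside the lineage, by edgeR with 1 term for the interaction, called 0 of 14252 genes at the adjusted threshold and 347 (2.43%) at an unadjusted p below 0.05. No other tool was run for this term, and the design of 4 against 3 pairs does not show that the effects were alike.

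Pi16 was higher by 4.17 (SE 0.36) inside and 3.57 (SE 0.16) outside the lineage, and Acta2 lower by 2.67 (SE 0.22) and 2.49 (SE 0.11). Rgs5 was lower by 7.50 (SE 0.36) and 8.86 (SE 0.25), and Notch3 by 4.44 (SE 0.17) and 5.22 (SE 0.16). Aqp1, a water channel, passed inside the lineage (2.07, SE 0.25) and not outside it (0.78, SE 0.27, adjusted p = 0.0868). Kcnj8 was at 0.58 (SE 0.17) inside and -0.58 (SE 0.17) outside. The interaction of each of these genes missed the adjusted threshold.

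**Figure D4:**
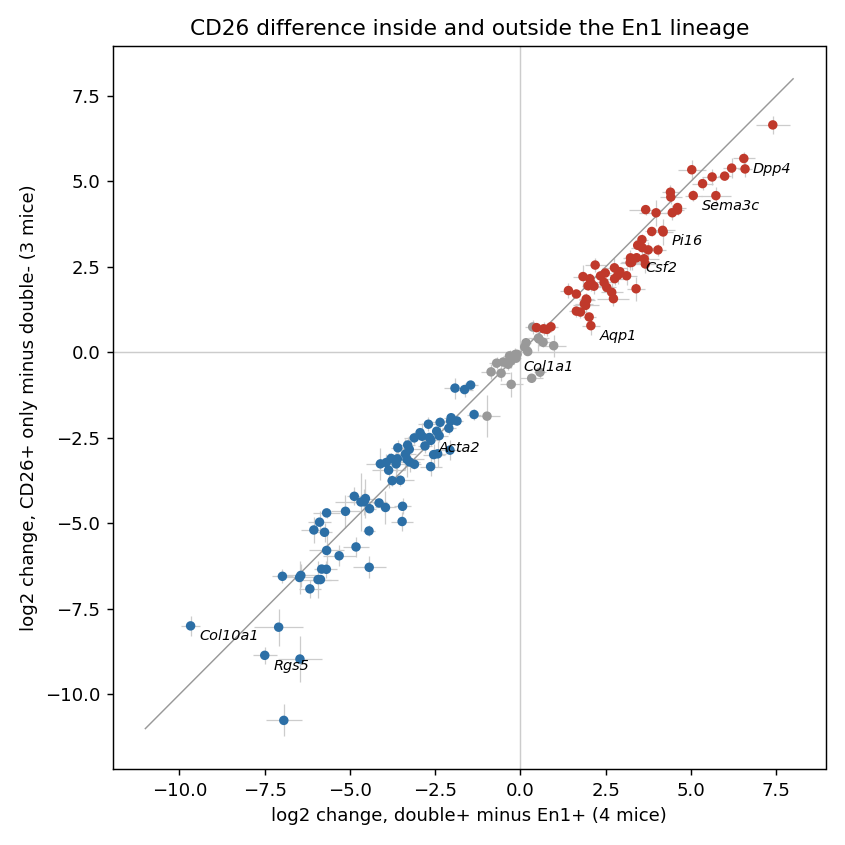
log2 difference between CD26+ and CD26- CAFs for 157 named genes, inside the En1 lineage (x axis, 4 mice) and outside it (y axis, 3 mice), with SE bars and the line of equality. Red and blue points are genes higher and lower in CD26+ CAFs over all libraries, grey points did not pass, and the coloured points lie in the same quadrants in both comparisons.

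The CD26 difference of WB1P tumors was then set beside that of WB1P-Myc tumors and control tissue, which share no libraries with it. The calls of WB1P came from the fit of its own mice, and those of the other sets from the joint fit described below. Among the genes tested in WB1P, WB1P-Myc mice gave 2387 higher and 2429 lower genes. Of the genes higher in WB1P, 1562 were also higher in WB1P-Myc, 77.9% of the WB1P and 65.4% of the WB1P-Myc list, and of the lower genes 1645, 75.8% and 67.7%. Only 2 lower genes were called the other way. Control mice, 3 in number, gave 881 higher and 827 lower among the same genes, of which 583 and 533 were shared with WB1P. These were 29.1% and 24.6% of the WB1P lists and 66.2% and 64.4% of the control lists, while 23 and 28 WB1P genes were called in the opposite direction.

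A joint fit of all 24 sums tested the difference of the CD26 effects itself, over 16567 genes, with 1 estimate of spread for the 3 tissue sets. In this fit 17.3% of genes were higher and 17.9% lower in CD26+ cells of WB1P, 15.2% and 17% in those of WB1P-Myc, and 5.73% and 5.85% in those of control. Between WB1P-Myc and WB1P, edgeR called 0 genes, with 1395 (8.42%) at an unadjusted p below 0.05 and 0 genes with DESeq2's size factors. Without the filter on low counts 33 genes passed. Between control and WB1P 851 genes (5.14%) passed, 490 (2.96%) with a CD26 effect that was more positive in control and 361 (2.18%) more negative, and 3427 (20.7%) had an unadjusted p below 0.05. This count depended on single mice: it fell to 271, 355 and 374 without the control samples 44/46, 49/52 and 82/83, to 412 without WB1P mouse 14 and to 567 without mouse 35, and leaving out mouse 12 took the first group to 326.

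Progenitor genes were higher in CD26+ cells of all 3 sets, with 23, 23 and 19 of 24 higher in WB1P, WB1P-Myc and control in the joint fit (medians 2.76, 2.22 and 1.69). For 6 of them the effect was significantly smaller in control than in WB1P, and for 1 larger. Sema3c showed log2 differences of 4.79, 4.56 and 5.00 (SE 0.35, 0.32 and 0.41), and Pi16 of 3.90, 3.37 and 2.79 (SE 0.38, 0.33 and 0.42), neither with a significant interaction. C3 was higher by 2.22, 1.51 and 2.14 (SE 0.43, 0.39 and 0.50). Wnt10b had a larger effect in control (8.70, SE 0.58) than in WB1P (5.53, SE 0.42, interaction adjusted p = 0.0351). Only 15 counts stood behind its CD26- values in control.

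Contractile and pericyte genes differed between sets. Of 21 contractile genes 19, 18 and 12 were lower in CD26+ cells of WB1P, WB1P-Myc and control, and 7 had a significantly weaker effect in control than in WB1P. Of 12 pericyte markers 10, 12 and 5 were lower, and 6 had a weaker effect in control. Rgs5 averaged 717 CPM in CD26- cells of WB1P (577 to 858), 2069 CPM in those of WB1P-Myc (1302 to 4157) and 27.9 CPM in those of control (15.5 to 38.8), against 2.71, 5.93 and 5.803 CPM in CD26+ cells. Its log2 difference was -8.13 (SE 0.44), -8.47 (SE 0.39) and -2.21 (SE 0.39), with an interaction of 5.92 between control and WB1P (SE 0.55, adjusted p = 1.37e-04). Acta2 had log2 differences of -2.50, -2.38 and -1.51, and its interaction with control did not pass (0.99, SE 0.49, adjusted p = 0.28). For Notch3, Mcam, Myh11, Flt1, Itga1 and Inhba the difference was significantly weaker in control, by 2.98 to 5.65 on the log2 scale.

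Some genes changed direction between WB1P and control. Megf6, an extracellular matrix-type protein with EGF repeats, was higher in CD26+ cells of WB1P (0.90, SE 0.21) and lower in those of control (-3.41, SE 0.28), with an interaction adjusted p of 1.36e-04. Aqp1 was at 57.3 against 17.7 CPM in WB1P and at 36.6 against 340 CPM in control (log2 differences 1.68 and -3.18), and Cyp2f2, a cytochrome P450, followed the same pattern (2.29 and -2.13). Adamts16 went the opposite way, at 51.1 against 141 CPM in WB1P and 54.2 against 0.131 CPM in control, where 11 counts stood behind the lower value (log2 differences -1.57 and 8.56). Spock3, a matrix proteoglycan, was lower by 2.98 in WB1P and higher by 7.72 in control, where its CD26- sums held 4 counts. In WB1P-Myc the raw counts of the classes lay closer together for some of these genes. None of them passed the test of WB1P-Myc against WB1P in the joint fit. The raw counts of WB1P-Myc, CD26+ against CD26-, were 361 and 312 for Cyp2f2, 4297 and 5407 for Adamts16, and 164 and 208 for Spock3. For Megf6 and Aqp1 they were 5115 and 2752, and 4697 and 3279, higher in CD26+ as in WB1P. Mmp13 was at 92.7 against 2111 CPM in WB1P, 69.6 against 396 CPM in WB1P-Myc and below 2 CPM in both classes of control, and Col10a1 had no count in control. In both, the tumor CD26- class was the high one.

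**Figure D5:**
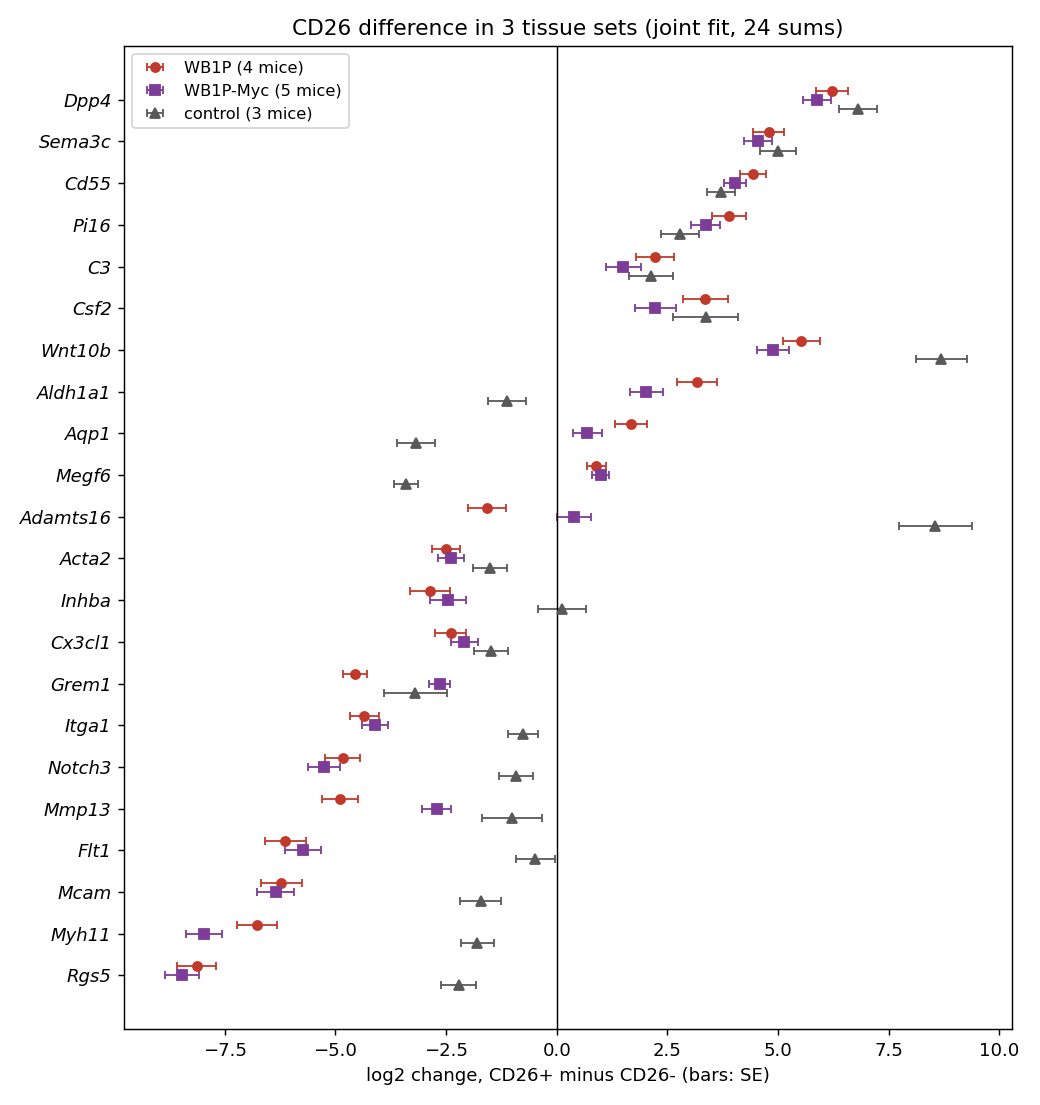
log2 difference between CD26+ and CD26- fibroblasts for 22 genes in WB1P (4 mice), WB1P-Myc (5 mice) and control (3 mice), from the joint fit, with bars for SE. Dpp4 and the progenitor genes Sema3c, Cd55 and Pi16 are positive in all 3 sets, Rgs5, Myh11, Mcam and Flt1 are far more negative in both tumor sets than in control, and Megf6, Aqp1 and Adamts16 lie on opposite sides of 0 in WB1P and control.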

How the data were processed

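Fibroblasts were profiled by poly(A) RNA sequencing with a stranded TruSeq library kit. The authors deposited raw gene counts, 1 value per Ensembl gene and library, made from reads aligned with HISAT2 2.2.1 to GRCm38 per the labels; the counting program, its strand setting and the annotation are not given in the sources used here. The table held 55486 genes and 1 line without a gene, which had 0 counts. Libraries of 1 mouse and class were summed. Sums were fitted with edgeR 4.0.16 in R 4.3.3 (quasi-likelihood test, TMM, filterByExpr by class, terms for mouse and class). The p-values were adjusted by Benjamini-Hochberg across all genes left by the filter, with a threshold of 0.05. Both classes of a mouse came from the same animal, and deviations from the class means correlated within each mouse (r = 0.67, 0.262, 0.529 and 0.404 for mice 93, 12, 14 and 35). Separate sums of a class are separate mice, except that each control sum carries the label of a pair of animals. The depth of each sum was 5790599 to 28310142 counts, which sets the counting precision of low genes.

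The effect in the 3 tissue sets was tested in 1 fit of 24 sums, and that of the En1 lineage in single libraries. Alternatives were DESeq2 1.42.0, its size factors, no count filter, no pairing, single libraries and leaving out each mouse. Scripts were tested on simulated data. The members, the 30 function lists and 10 cell type lists were chosen with earlier results of these data known. Genes were named by rule: Dpp4, En1, the 12 largest differences per direction with at least 10 CPM in the higher class and the same direction in all 4 mice, up to 4 passing and 2 other genes per list, the marker lists, and 5 genes per direction of the control comparison. Chosen after their values were seen were Acta2, Pi16, C3, Mustn1, Tagln, Myl9, Ldb3, Pdgfrb, Cd3d, Cd3g, Cd53, Ptprc, Epcam and Itga6, and the list members C1ra, C1s1, C6, C7, Cd59a, Cxcl9, Cxcl14, Il34, Tnfsf11, Notch2, Col6a1, Col6a2, Col6a3, Col14a1, Col28a1 and those named without a value. Promoters came from RefSeq (GRCm38.p6).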

Additional observations from a re-analysis of the deposited data

Results flagged for a closer look

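In 28 of 299 groups of 4 values (9.36%) 1 mouse lay far from the other 3 by Dixon's test, which chance gives in about 1 of 20 groups. Mouse 93 was the far one in 16 of them, mouse 12 in 7, mouse 35 in 4 and mouse 14 in 1. In CD26- CAFs mouse 93 was high for Aqp1 (31.5 CPM), Megf6 (85.4), Pi16 (305.5), Csf2 (74.4), C4b (1165), Cxcl12 (647), Ptx3 (1103), Mmp12 (67.6), Mmp27 (9.61) and Cd3e (13.2). In CD26+ CAFs mouse 93 was high for Inhba (370.0 CPM), En1 (63.5), Fst (447), Jag1 (509) and Itga5 (2466), and low for Igfbp2 (6.36). Mouse 12, whose CD26+ sum is 1 shallow library, was low in CD26+ CAFs for Steap4 (161 CPM), Col11a1 (50.2) and Tgfbr3 (289) and high for Ndufa4l2 (214) and Acta1 (2.26), and its CD26- value was high for Pdlim7 (163) and Ptgis (24.0). Mouse 35 was high in CD26- CAFs for Kcnmb1 (30.2 CPM), Des (88.5) and Ptgs1 (18.9), and in CD26+ CAFs for Actg2 (5.39). Mouse 14 was low in CD26- CAFs for H2-D1 (513 CPM).

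The CD26 effect differed between control and WB1P for 851 genes, 5.14% of those tested (edgeR, adjusted p below 0.05). Of the 26 named genes compared 16 were among them, a count set in large part by the choice of genes, since 5 per direction were named for the size of this difference. As log2 effect in control minus that in WB1P, the values were 5.92 for Rgs5, 4.99 for Myh11, 5.65 for Flt1, 4.50 for Mcam, 3.92 for Notch3, 3.60 for Itga1, 3.88 for Mmp13 and 2.98 for Inhba. They were 3.17 for Wnt10b, 10.7 for Spock3 and 10.1 for Adamts16, and -5.94 for Tll2, -4.87 for Aqp1, -4.42 for Cyp2f2, -4.31 for Megf6 and -4.29 for Aldh1a1. Some of these rest on few counts in control. The CD26- sums there held 15 counts for Wnt10b, 4 for Spock3 and 11 for Adamts16. Tll2 had 39 counts in CD26+ and 18 in CD26- sums of control.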

How the results depend on the processing

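Among the named genes 133 passed, and of their 1729 values under the alternatives 1712 kept direction and call, 17 kept direction only and 0 reversed. Without pairing by mouse (no replicate block) 1307 genes were higher and 1528 lower. With single libraries as units, which are not independent within a mouse, 7283 were called, 3863 higher and 3420 lower. Leaving out 1 mouse gave 2714 to 4037 called genes, 1100 to 1904 higher and 1614 to 2133 lower. The comparison of WB1P-Myc with WB1P called 33 genes without the filter on low counts and 0 to 16 without 1 mouse. The comparison of control with WB1P called 220 genes without the block, 131 higher and 89 lower, and without 1 mouse 271 to 1081, 164 to 618 higher and 107 to 463 lower. Of 312 values of the 24 named genes that did not pass, 271 stayed, 36 gained a call (10 with single libraries, 6 without the filter) and 5 reversed, and 9 genes stayed throughout. Postn turned to 0.026 without mouse 14 (range without 1 mouse -0.16 to 0.026), Kcnj8 to -0.12 without mouse 12 (-0.12 to 0.19) and -0.58 outside the lineage, and Ndufa4l2 to -0.38 without mouse 12 (-0.38 to 0.41) and -0.76 outside the lineage. The cause was not tested. Depth limits genes with few counts in 1 class, whose fold changes depend on the prior count.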

Other observations

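Cd3e and Cd53, genes best known from lymphocytes and leukocytes, differed strongly between fibroblasts sorted as CD45 negative. Cd3e, a chain of the T cell receptor complex, was at 122, 57.3, 39.8 and 35.1 CPM in CD26+ and 13.2, 4.56, 3.31 and 3.47 CPM in CD26- CAFs (log2 difference 3.44, SE 0.14, edgeR adjusted p = 8.27e-06). Cd3d and Cd3g, the partner chains, had at most 1 count in each class. Cd53, a tetraspanin of leukocytes, was at 0.753, 0.347, 1.37 and 4.92 CPM in CD26+ and 86.0, 46.3, 90.1 and 124 CPM in CD26- CAFs (log2 difference -5.76, SE 0.37, edgeR adjusted p = 4.26e-05). Ptprc, which encodes CD45, stayed at or below 8.89 CPM in every mouse and class and did not pass (adjusted p = 0.0699 by edgeR).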
